A study of Mus musculus with 12 samples.

Results

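The genes described here carry out the cell cycle, DNA replication and DNA repair, and were measured in whole brain of 10-day-old mice that differ in the connexin gene Gja9. They were chosen by symbol alone, without regard to their values: cyclins, Cdc genes other than Cdc42 and its relatives, Mcm, Orc, Rfc, Bub, Rad, Xrcc, Ercc and Msh genes, DNA polymerase subunits, topoisomerases, RPA subunits, RNases H, Pcna and Mki67. The array carried 103 such genes on 227 probes, and 71 of them had values, on 111 probes, out of 6427 named genes and 9514 features tested in all. The other 32 genes had no value in any sample, Mki67, Ccnb2, Cdc20, Cdc7 and Orc1 among them. A choice by symbol also takes in genes that work elsewhere, such as Cdc40 and Cdc5l in splicing, Cdc73 in transcript elongation and Cdc37 as a chaperone partner of kinases.

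The study compared 3 genotypes on the C57Bl/6j background at the age of 10 days: Gja9 (-/-) mice, written Gja9_null here, Gja9 (+/-) mice, written Gja9_het, and wildtype mice, with 4 biological replicates of each. Gja9 is the older name of Gjd2, which encodes the main gap junction protein between neurons, and no probe of the array carries that name, so the deleted gene itself was not measured here. RNA of each whole brain was labelled with 1 of 2 dyes, and by the submitters' design extracts of 1 genotype shared an array, which puts the 12 samples on 6 spotted cDNA arrays. The question was which transcripts differ when both copies or 1 copy of the gene is missing.

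In a dividing cell, cyclins and their kinases time the phases of the cycle, the origin recognition complex and Cdc6 load the MCM helicase at replication origins, and polymerases with the sliding clamp Pcna copy the strands that the helicase opens. The checkpoint proteins of the Bub family hold anaphase back until chromosomes are attached, and excision repair, end joining and recombination mend the DNA. In the mouse brain at this age division goes on mainly in the outer granular layer of the cerebellum and among glial precursors, while most neurons have left the cycle and keep their repair genes in use. In RNA from bulk tissue, fewer cells of a type and less RNA per cell cannot be told apart.

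Each value is a log2 signal with the sample's mean signal as its unit, so a difference of 1 is a doubling. Values are listed in the order of samples 1 to 4, of which samples 1 and 2 were taken to share the first array of a genotype and samples 3 and 4 the second. Differences carry their standard error after the sign ±, and a gene was called where limma's p, adjusted over all 9514 features by Benjamini-Hochberg, was under 0.05. Because samples share arrays, these p-values partly measure technical spread. The arrays of a genotype differed more than the samples on 1 array. Over the 71 genes the median gap between arrays was 0.37 in Gja9_null, 0.22 in Gja9_het and 0.28 in wildtype. The median gap between the samples of an array was 0.15, 0.10 and 0.13. Those samples differ in dye and, as biological replicates, in animal. The first Gja9_null array stood apart, being the lowest of the 6 arrays for 29 of the 71 genes and for 33.6% of all features. Without it, 13 of the 71 differences between Gja9_null and wildtype changed sign.

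Against wildtype, Rnaseh1 was the only gene of the 71 called in Gja9_null brains, where it fell. That is 1.41% of the genes, and 31 features (0.326%) were called in all. At an unadjusted p under 0.05, 1 gene (Mcm4) was higher, against 2.41% of all features, and 6 (Rnaseh1, Cdc14b, Cdc37l1, Rad18, Rad54b and Xrcc1) were lower, or 8.45%, against 9.22% of all features. The 4 Gja9_null samples lay wholly above the 4 wildtype samples in 4 genes (5.63%), against 7.52% of features, and wholly below them in 15 (21.1%), against 15.6% of features. The median difference was -0.17 over the 71 genes and -0.10 over all features, and 70.4% of the genes and 58.9% of the features had a negative difference. With the dimmest 25% of probes left out, the medians were -0.05 over the 45 genes that remained and -0.04 over all features.

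Between Gja9_het and wildtype brains no gene was called, and no feature was (0 of 9514, 0%). At an unadjusted p under 0.05, Mcm4 was higher, 1 of 71 against 1.67% of all features, and Rad23b was lower, 1 of 71 against 0.515%. The samples did not overlap in 6 genes that were higher in Gja9_het, or 8.45% against 8.67% of features, and in 9 that were lower, or 12.7% against 6.09%. The median difference was 0.06 over the genes and 0.03 over all features. Between Gja9_null and Gja9_het brains Rnaseh1 was again the only gene called, as 1 of 26 called features (0.273%). At an unadjusted p under 0.05, Rad23b and Ccndbp1 were higher in Gja9_null, or 2.82% of the genes against 3.64% of features, and 9 genes were lower, or 12.7% against 11.3%. Samples did not overlap in 10 higher genes, or 14.1% against 10.2%, and in 21 lower genes, or 29.6% against 22.5%. This last comparison uses the same Gja9_null samples as the first, so the pair are not independent.

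**Figure D1:**
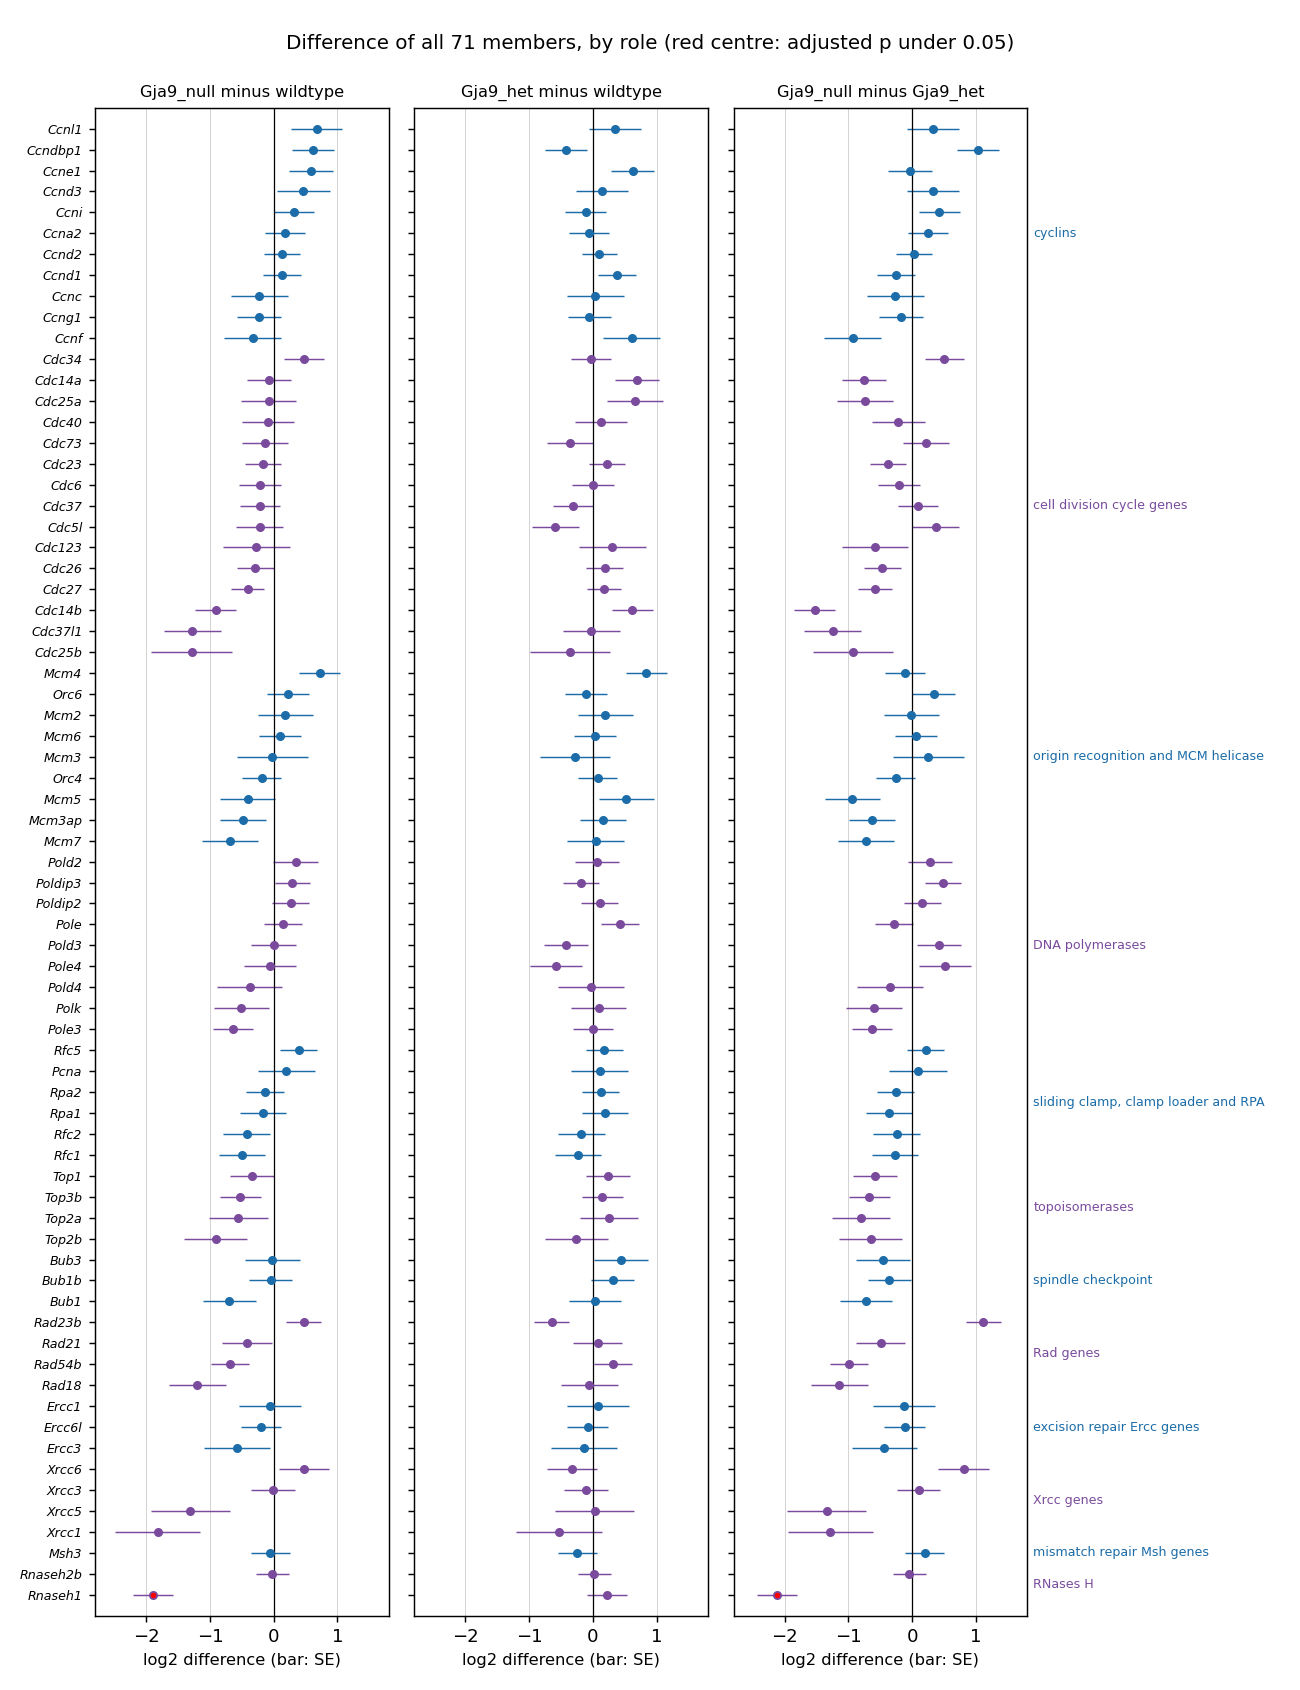
Log2 difference of each of the 71 genes, grouped by role, in the 3 comparisons, with bars of 1 standard error and zero marked by a line. Most bars reach or nearly reach zero, and the red centre marks Rnaseh1 at -1.89 against wildtype and -2.12 against Gja9_het.

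Rnaseh1, on chromosome 12, encodes a nuclease of the nucleus and mitochondria that degrades RNA paired with DNA. Its signal was -3.16, -3.11, -3.79 and -3.92 in Gja9_null brains, -1.42, -1.27, -1.40 and -1.42 in Gja9_het brains and -1.63, -1.59, -1.54 and -1.65 in wildtype brains. All Gja9_null samples lay below every other sample, on both arrays, while the Gja9_het samples lay just above the wildtype ones. In Gja9_null brains Rnaseh1 fell by 1.89 ± 0.31 against wildtype, a 3.72-fold lower signal (limma, adjusted p = 0.0206), and it was lower by 4.35-fold than in Gja9_het brains, a difference of -2.12 ± 0.31 (limma, adjusted p = 0.028). The Gja9_het samples differed from wildtype by 0.23 ± 0.31, which did not pass. Without the first Gja9_null array the differences were -2.26 against wildtype and -2.48 against Gja9_het, both called.

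The call of Rnaseh1 depended on how neighbouring probes were treated. The gene had 1 clone, whose number lies in the last 3 of 48 stretches into which the probe numbers were divided, where the median difference of all probes between Gja9_null and wildtype was -0.69, against -0.05 elsewhere. Around this clone the median deviation of the nearest probes from their own means was -1.06 and -0.42 on the Gja9_null arrays, 0.41 and 0.42 on the Gja9_het arrays and 0.18 and 0.52 on the wildtype arrays. After each sample was centred on its nearest 50 probe numbers on either side, Rnaseh1 stood at -0.80 ± 0.33 against wildtype (limma, adjusted p = 0.274) and at -0.96 ± 0.33 against Gja9_het (limma, adjusted p = 0.136). It kept its sign and was no longer called. The call against wildtype was also lost with array means, with quantile or cyclic loess normalization and with only the 2 genotypes in the fit (limma, adjusted p from 0.104 to 0.182), and the call against Gja9_het also without wildtype sample 3 or without Gja9_het sample 2, 3 or 4 (limma, adjusted p from 0.0509 to 0.0555). The other RNase H gene with values, Rnaseh2b, a subunit of the enzyme that also removes single ribonucleotides from DNA, differed by -0.02 ± 0.26 between Gja9_null and wildtype.

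**Figure D2:**
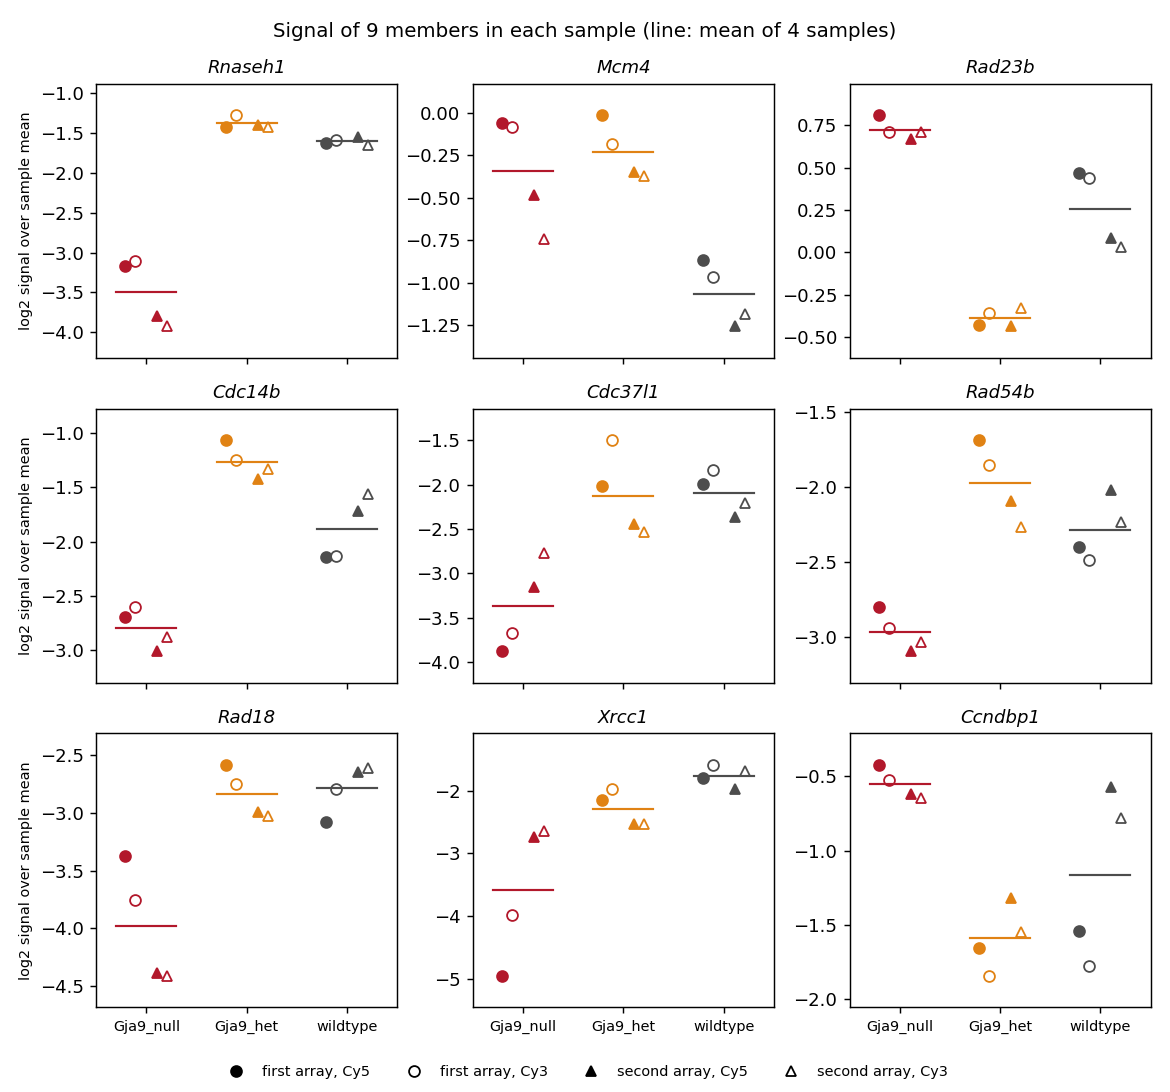
Log2 signal of 9 genes in each of the 12 samples by genotype, with circles for the first and triangles for the second array, filled for Cy5 and open for Cy3, and a line at the mean of 4 samples. Rnaseh1 is the gene whose Gja9_null samples lie farthest from both other groups, and for Xrcc1 the circles and triangles of Gja9_null lie apart.

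The cyclin group holds 11 genes, with Ccndbp1, which encodes a cyclin-binding protein and not a cyclin, counted among them. Here 8 were higher and 3 lower in Gja9_null than in wildtype brains under the deposited values and after median centring, quantile or cyclic loess normalization. None was called. The median was 0.18 with the deposited values and 0.26, 0.27 and 0.30 under these 3 scalings. The split was 7 to 4 after local centring and without the first Gja9_null array. The 3 D cyclins, which start the cycle by binding Cdk4 and Cdk6, differed by 0.47 ± 0.41 for Ccnd3, 0.13 ± 0.28 for Ccnd2 and 0.13 ± 0.30 for Ccnd1. None of these differences passed the test. Ccne1, which drives entry into S phase, had -1.48, -1.58, -1.36 and -1.73 in Gja9_null brains, -1.28, -1.38, -1.56 and -1.79 in Gja9_het brains and -1.64, -1.87, -2.29 and -2.70 in wildtype brains. The Gja9_null and Gja9_het samples cover the same range, and the wildtype samples reach lower, most of all on their second array. The differences from wildtype were 0.59 ± 0.34 in Gja9_null and 0.62 ± 0.34 in Gja9_het. Ccna2, the cyclin of S and G2 phase, differed by 0.18 ± 0.31 between Gja9_null and wildtype, and Ccnf, an F-box protein that marks proteins for degradation, with a difference of -0.33 ± 0.45. Ccni, an atypical cyclin that is bright on the array, had between 1.24 and 1.78 in Gja9_null brains, against 0.96 to 1.13 in Gja9_het and 0.96 to 1.35 in wildtype. Ccng1, a target of p53 with 5 clones, stood at -0.23 ± 0.34 between Gja9_null and wildtype.

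Ccndbp1, which encodes a helix-loop-helix protein that binds D cyclins, had the largest positive difference of the cyclin group between Gja9_null and Gja9_het. Its signal was -0.42, -0.53, -0.62 and -0.64 in Gja9_null brains, -1.66, -1.84, -1.32 and -1.55 in Gja9_het brains and -1.54, -1.77, -0.57 and -0.78 in wildtype brains. The Gja9_null and Gja9_het samples do not overlap, and the wildtype arrays split between them. The difference was 1.04 ± 0.33 between Gja9_null and Gja9_het (limma, adjusted p = 0.175) and 0.61 ± 0.33 between Gja9_null and wildtype (limma, adjusted p = 0.512).

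Of the 15 Cdc genes 14 were lower in Gja9_null than in wildtype brains, with a median of -0.21, and none was called. The count was 13 of 15 after median centring, 11 after quantile or cyclic loess normalization and 10 both after local centring and without the first Gja9_null array. Cdc14b, a phosphatase that opposes cyclin-dependent kinases at the end of mitosis in yeast and acts in the DNA damage checkpoint in mammals, had -2.69, -2.60, -3.01 and -2.88 in Gja9_null brains, -1.06, -1.25, -1.43 and -1.33 in Gja9_het brains and -2.14, -2.13, -1.71 and -1.56 in wildtype brains. Its 3 groups do not overlap, with Gja9_null lowest and Gja9_het highest. The difference was -0.91 ± 0.32 between Gja9_null and wildtype (limma, adjusted p = 0.296), 0.62 ± 0.32 between Gja9_het and wildtype and -1.53 ± 0.32 between Gja9_null and Gja9_het (limma, adjusted p = 0.0702). The last value passed in the fit without a dye term (limma, adjusted p = 0.033). After local centring the differences were -0.40 from wildtype and -1.02 from Gja9_het. Its relative Cdc14a had -3.04, -3.39, -1.80 and -2.09 in Gja9_null brains, -1.52, -1.78, -1.85 and -2.13 in Gja9_het brains and -2.29, -2.57, -2.46 and -2.70 in wildtype brains. The Gja9_null arrays lay on either side of the wildtype samples.

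Cdc37l1, a relative of the kinase chaperone partner Cdc37, had -3.87, -3.67, -3.15 and -2.77 in Gja9_null brains, -2.01, -1.50, -2.45 and -2.54 in Gja9_het brains and -1.99, -1.83, -2.36 and -2.20 in wildtype brains. All Gja9_null samples were below all others. The difference was -1.27 ± 0.45 against wildtype (limma, adjusted p = 0.288) and -1.25 ± 0.45 against Gja9_het, and it was -0.66 and -0.75 after local centring and -0.87 and -0.84 without the first Gja9_null array. The phosphatases that switch on cyclin-dependent kinases were low on the first Gja9_null array: Cdc25b had -3.70 and -2.92 there, against -1.58 and -1.63 on the second Gja9_null array and -1.18 to -1.16 in wildtype brains. Cdc25a had -3.06 and -3.22 on the first and -1.68 and -1.53 on the second Gja9_null array, with wildtype brains between -2.44 and -2.19. The second array put Cdc25a above wildtype, so the arrays of 1 genotype pointed opposite ways.

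The 3 subunits of the anaphase-promoting complex, the ubiquitin ligase that ends mitosis, gave small negative differences between Gja9_null and wildtype, which for Cdc23 turned to 0.01 and 0.02 under quantile and cyclic loess normalization and for Cdc26 to 0.16 after local centring. Cdc27, averaged over 5 clones, had -1.47, -1.32, -1.48 and -1.28 in Gja9_null brains, -0.79, -0.62, -0.97 and -0.83 in Gja9_het brains and -0.97, -0.83, -1.06 and -1.05 in wildtype brains. The Gja9_null samples lay below both other groups, with a difference of -0.41 ± 0.26 against wildtype and -0.58 ± 0.26 against Gja9_het. The differences from wildtype were -0.29 ± 0.29 for Cdc26 and -0.17 ± 0.28 for Cdc23. Cdc6, which loads the MCM helicase with Cdt1, differed by -0.21 ± 0.33. Cdc34, a ubiquitin-conjugating enzyme, was the 1 Cdc gene on the positive side, at 0.47 ± 0.31.

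Of the 8 genes of the origin recognition complex and the MCM helicase 4 were higher and 4 lower in Gja9_null than in wildtype brains, with a median of 0.04, and 6 were higher under quantile and cyclic loess normalization and local centring. Mcm3ap, which encodes a protein that binds Mcm3, is not counted here and stood at -0.48. Mcm4, a subunit of the helicase ring, on chromosome 16, was the 1 gene of all 71 that lay above wildtype at an unadjusted p under 0.05 in both other genotypes. Its signal was -0.06, -0.08, -0.48 and -0.74 in Gja9_null brains, -0.01, -0.18, -0.35 and -0.37 in Gja9_het brains and -0.87, -0.96, -1.25 and -1.18 in wildtype brains. The wildtype samples lay below all 8 others, and the Gja9_null and Gja9_het samples overlap. The difference from wildtype was 0.73 ± 0.32 in Gja9_null (limma, adjusted p = 0.404) and 0.84 ± 0.32 in Gja9_het (limma, adjusted p = 1), both against the same wildtype samples. Local centring left them at 0.74 and 0.85, and without the first Gja9_null array the Gja9_null difference was 0.45.

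The other subunits of the ring gave differences of either sign. Mcm5 had -3.41, -3.27, -3.88 and -3.50 in Gja9_null brains, -2.17, -2.14, -3.09 and -2.91 in Gja9_het brains and -3.61, -3.61, -2.55 and -2.65 in wildtype brains. Its Gja9_null samples lay below all Gja9_het samples, with a difference of -0.94 ± 0.43, and overlapped the wildtype ones. Mcm7 had -2.89, -3.20, -2.06 and -1.83 in Gja9_null brains, against -1.92 to -1.67 in wildtype brains, so the first array lay well below the wildtype range and sample 3 just below it. The differences between Gja9_null and wildtype were 0.18 ± 0.43 for Mcm2, 0.09 ± 0.33 for Mcm6 and -0.02 ± 0.55 for Mcm3. Among the proteins that mark origins, Orc6 stood at 0.22 ± 0.33 and Orc4 at -0.18 ± 0.31.

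Promoters were read from the RefSeq table for GRCm38.p6, in windows of 250 bases before and 50 after each gene start. Of the 71 genes 57 were matched, with 69 windows. Ccna2, Ccnd1, Ccnd2, Cdc23, Ercc3, Ercc6l, Mcm4, Poldip3, Pole, Rad21, Rad54b, Rfc2, Rnaseh1 and Rnaseh2b were not. Genes switched on before S phase are often bound by E2F factors, so the octamers TTTCCCGC, TTTCGCGC, TTTGCCGC and TTTGGCGC were searched on both strands. At least 1 was found in 10 of the 57 genes (17.5%), namely Cdc25a, Cdc6, Mcm3, Mcm5, Mcm6, Mcm7, Msh3, Pold3, Pole4 and Xrcc6, against 5.12% of the 5178 matched genes measured on the array, and in 15.9% of the 69 windows against 2.26% of all 32851. Stretches upstream of the start are shown for 6 genes that span helicase, licensing, kinase activation and end joining, 5′ to 3′ on the strand of the gene, with octamers of either orientation in capitals. The octamers of Mcm5 and of Mcm6 each overlap in the middle, so their capitals run over 12 bases.
Mcm5, chr8:75109316-75109403, plus strand: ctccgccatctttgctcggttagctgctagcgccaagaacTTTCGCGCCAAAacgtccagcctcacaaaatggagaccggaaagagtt
Mcm6, chr1:128359768-128359855, minus strand: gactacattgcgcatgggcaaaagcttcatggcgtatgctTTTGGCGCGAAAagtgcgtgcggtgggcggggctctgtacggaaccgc
Mcm7, chr5:138172001-138172088, minus strand: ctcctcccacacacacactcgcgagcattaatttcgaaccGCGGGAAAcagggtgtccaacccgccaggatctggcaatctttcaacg
Cdc6, chr11:98907973-98908060, plus strand: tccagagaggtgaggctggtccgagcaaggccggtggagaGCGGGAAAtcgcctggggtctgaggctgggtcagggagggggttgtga
Cdc25a, chr9:109875472-109875559, plus strand: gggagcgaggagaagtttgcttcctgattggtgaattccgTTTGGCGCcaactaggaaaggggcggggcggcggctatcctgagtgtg
Xrcc6, chr15:82016283-82016368, plus strand: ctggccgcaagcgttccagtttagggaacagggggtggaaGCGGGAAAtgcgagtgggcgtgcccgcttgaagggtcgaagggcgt

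The genes with an E2F octamer lay on both sides of zero. Between Gja9_null and wildtype 2 of the 10 were higher and 8 lower, with a median of -0.06, against -0.17 over all 71 genes. Their range ran from -0.69 in Mcm7 to 0.48 in Xrcc6. Between Gja9_het and wildtype 4 were higher and 6 lower, with a median of -0.13, against 0.06 over all 71 genes. Between Gja9_null and Gja9_het 6 were higher and 4 lower, with a median of 0.13, against -0.26 over all 71 genes. The CHR element TTTGAA of genes expressed in G2 and mitosis, searched on both strands, was in 17.5% of the matched genes and 13.3% of array genes, in 17.4% of their windows and 17.9% of all windows. The CCAAT box, likewise on both strands, was in 61.4% of the matched genes and 42.7% of array genes, in 53.6% of their windows and 37.4% of all windows. The GC box GGGCGG was in 70.2% of them and 70.5% of array genes, in 65.2% of their windows and 35.7% of all windows. A match describes the letters only.

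Among the 7 DNA polymerase genes 2 were higher and 5 lower in Gja9_null than in wildtype, with a median of -0.06, and 4 were higher after median centring, quantile or cyclic loess normalization or local centring. Poldip2 and Poldip3, which encode proteins that bind a polymerase subunit, are not counted here and stood at 0.26 and 0.29. Pole3, a histone-fold subunit of the leading-strand polymerase and among the dimmest genes here, had -3.22, -3.17, -3.30 and -2.99 in Gja9_null brains, -2.47, -2.31, -2.70 and -2.66 in Gja9_het brains and -2.54, -2.42, -2.55 and -2.62 in wildtype brains. The Gja9_null samples lay below all others, with a difference of -0.63 ± 0.31 against wildtype (limma, adjusted p = 0.457). Both clones of Pole3 were negative, and after local centring the value was -0.30. Pole4, its partner in that complex, had no such gap to wildtype, at -0.06 ± 0.41, and lay lower in all Gja9_het samples than in wildtype, with a difference of -0.57 ± 0.41. The catalytic subunit Pole differed by 0.14 ± 0.30. Polk, which copies past damaged bases, had -1.18, -1.61, -1.21 and -1.50 in Gja9_null brains, -0.91, -0.76, -0.69 and -0.77 in Gja9_het brains and -1.10, -0.93, -0.67 and -0.78 in wildtype brains. Its Gja9_null samples were below all others by a small margin, at -0.51 ± 0.44 against wildtype, and the value turned to 0.08 after local centring.

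The clamp, its loader and the single-strand binding protein RPA gave 2 positive and 4 negative differences between Gja9_null and wildtype, with a median of -0.16. Pcna, the sliding clamp and a common mark of dividing cells, had -1.42, -1.45, -0.36 and -0.17 in Gja9_null brains, -1.09, -1.37, -0.65 and -0.65 in Gja9_het brains and -1.05, -1.18, -1.09 and -0.86 in wildtype brains. The Gja9_null arrays straddled the wildtype samples, and the difference was 0.20 ± 0.45. The clamp loader subunits went both ways, Rfc5 at 0.39 ± 0.29, Rfc2 at -0.43 ± 0.37 and Rfc1 at -0.50 ± 0.36. The sign of Rfc2 differed between the Gja9_null arrays, at -1.002 for the first and 0.15 for the second. Rpa2, bright in every sample at 2.36 to 2.79, differed by -0.14 ± 0.29, and Rpa1, the large subunit of the same complex, with a difference of -0.17 ± 0.36.

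All 4 topoisomerases were lower in Gja9_null than in wildtype brains, with a median of -0.54, and none passed the test. They stayed negative after median centring, quantile and cyclic loess normalization, while 1 of 4 was positive after local centring and 1 of 4 without the first Gja9_null array. Top2b, the topoisomerase II of neurons, which acts at long genes, had -2.95, -2.53, -1.19 and -0.80 in Gja9_null brains, -1.10, -1.05, -1.39 and -1.33 in Gja9_het brains and -0.98, -1.01, -1.01 and -0.83 in wildtype brains. The low values were those of the first Gja9_null array, whose mean lay 1.78 below wildtype, and the second lay 0.04 below. Top3b, which also acts on RNA, showed the same split, with -0.24 and -0.23 on the first and 0.83 and 0.80 on the second Gja9_null array, against 0.75 to 0.88 in wildtype. Top2a, the form of dividing cells, had -1.66, -1.96, -1.78 and -1.36 in Gja9_null brains, -0.75, -0.77, -0.99 and -1.03 in Gja9_het brains and -1.40, -1.56, -0.79 and -0.79 in wildtype brains. Here both Gja9_null arrays were below Gja9_het, with a difference of -0.80 ± 0.46, and the wildtype samples overlapped the Gja9_null ones. Top1 differed by -0.35 ± 0.34 from wildtype.

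The spindle checkpoint genes differed from wildtype in Gja9_null by -0.69 ± 0.41 for the kinase Bub1, -0.05 ± 0.34 for Bub1b and -0.02 ± 0.43 for Bub3. Bub1 had -3.23, -3.81, -1.95 and -2.25 in Gja9_null brains, -1.85, -2.23, -2.00 and -2.26 in Gja9_het brains and -2.00, -2.35, -1.97 and -2.15 in wildtype brains. The first Gja9_null array lay below all other samples, and the second overlapped the wildtype range. In all 3 genes the difference between Gja9_het and wildtype was positive, from 0.03 to 0.44, and not called, and that of Bub1 turned slightly negative under median centring, quantile and cyclic loess normalization.

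Of the 4 Rad genes 3 were lower and 1 higher in Gja9_null than in wildtype under the deposited values and all 4 scaling alternatives, and in all 4 the samples of these groups did not overlap, as in 7.52% of all features for higher and 15.6% for lower ones. Rad18, the ubiquitin ligase that marks Pcna at stalled forks, had -3.38, -3.76, -4.39 and -4.41 in Gja9_null brains, -2.59, -2.75, -2.997 and -3.03 in Gja9_het brains and -3.08, -2.796, -2.65 and -2.62 in wildtype brains. The difference was -1.20 ± 0.44 against wildtype (limma, adjusted p = 0.327), and -0.70 after local centring. Rad54b, a motor protein of homologous recombination, had -2.797, -2.94, -3.09 and -3.03 in Gja9_null brains, -1.69, -1.85, -2.09 and -2.27 in Gja9_het brains and -2.40, -2.48, -2.02 and -2.24 in wildtype brains. The Gja9_null samples were below both other groups and close to each other across arrays, at -0.68 ± 0.30 against wildtype (limma, adjusted p = 0.4) and -0.99 ± 0.30 against Gja9_het (limma, adjusted p = 0.156). Local centring left these at -0.57 and -0.81. Rad21, a subunit of the cohesin ring, differed from wildtype by -0.42 ± 0.39.

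Rad23b, which holds the damage sensor Xpc in nucleotide excision repair and carries ubiquitinated proteins to the proteasome, separated all 3 genotypes. Its signal was 0.81, 0.71, 0.67 and 0.71 in Gja9_null brains, -0.43, -0.36, -0.44 and -0.33 in Gja9_het brains and 0.47, 0.44, 0.08 and 0.03 in wildtype brains. No sample of 1 genotype overlaps another, with Gja9_null highest and Gja9_het lowest, so the heterozygous brains do not lie between the others. The difference was 0.47 ± 0.28 between Gja9_null and wildtype (limma, adjusted p = 0.55), -0.65 ± 0.28 between Gja9_het and wildtype (limma, adjusted p = 1) and 1.11 ± 0.28, or 2.16-fold, between Gja9_null and Gja9_het (limma, adjusted p = 0.0952). Local centring left these at 0.28, -0.49 and 0.78, the last with a limma adjusted p of 0.0573. Cdc14b, Rnaseh1 and Xrcc1 likewise had no overlap among the 3 genotypes, and the share of all features that separate so was not counted. The 250 bases before the start of Rad23b are shown, with the CCAAT box and both GC boxes in capitals. No E2F octamer is in this window.
Rad23b, chr4:55349792-55350041, plus strand: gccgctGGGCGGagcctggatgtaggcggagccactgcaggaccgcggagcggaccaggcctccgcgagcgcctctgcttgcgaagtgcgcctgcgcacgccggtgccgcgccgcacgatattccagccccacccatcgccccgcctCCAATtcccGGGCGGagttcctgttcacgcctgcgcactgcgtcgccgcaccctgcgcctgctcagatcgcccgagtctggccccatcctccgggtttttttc

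Xrcc1, the scaffold of single-strand break repair, had the second lowest difference from wildtype of all 71 genes. Its signal was -4.95, -3.99, -2.73 and -2.65 in Gja9_null brains, -2.16, -1.97, -2.53 and -2.53 in Gja9_het brains and -1.81, -1.59, -1.97 and -1.69 in wildtype brains. The Gja9_het samples lay below the wildtype ones, the closest at -1.974 against -1.970. Every Gja9_null sample was below every other sample, and the first Gja9_null array lay far below the second. The difference was -1.82 ± 0.67 against wildtype (limma, adjusted p = 0.324), made up of -2.71 for the first and -0.93 for the second Gja9_null array, and it was -0.95 after local centring. Xrcc5, a subunit of the Ku protein that binds broken ends, had -4.73, -4.07, -2.66 and -2.33 in Gja9_null brains, -2.18, -1.86, -2.16 and -2.23 in Gja9_het brains and -2.12, -2.16, -2.10 and -2.17 in wildtype brains. The wildtype and Gja9_het samples overlap, and the gap of the second Gja9_null array to wildtype was -0.36. Its Ku partner Xrcc6 stood on the other side, with -1.38, -1.22, -1.95 and -1.75 in Gja9_null brains, -2.59, -2.50, -2.22 and -2.21 in Gja9_het brains and -2.21, -2.50, -1.71 and -1.78 in wildtype brains. Xrcc6 was above every Gja9_het sample in all Gja9_null samples, by 0.81 ± 0.40, and overlapped wildtype.

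The nucleotide excision repair gene Ercc3, a helicase subunit of TFIIH, had -3.26, -2.77, -1.46 and -1.12 in Gja9_null brains, against -1.78 to -1.26 in wildtype brains, and differed by -0.58 ± 0.52, or by 0.29 without the first Gja9_null array. Ercc1, a subunit of the nuclease that cuts beside the lesion, differed by -0.05 ± 0.49, and Ercc6l, a translocase of mitotic chromosomes, with a difference of -0.20 ± 0.32. The mismatch repair gene Msh3 stood at -0.05 ± 0.31. None of these 4 differences passed the test.

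Probe position moved with many of these results. Of the 111 clones 9 lay in the last 3 stretches of probe numbers, and 8 of these were lower in Gja9_null than in wildtype, with a median of -0.52, against a median of -0.07 for the 102 others. Cdc14b, Rad18 and Rnaseh1 had their single clone there. After local centring 38 of the 71 genes were lower in Gja9_null than in wildtype, with a median of -0.03, and 14 had changed sign. The range narrowed to between -0.95 and 0.74. Between Gja9_null and Gja9_het 40 were lower, with a median of -0.09. In size 39 of the 71 differences from wildtype shrank, and 50 of those from Gja9_het, while others grew. Among those that grew were Ccni, at 0.64 ± 0.21 from wildtype, and Ccnf, at -1.13 ± 0.27 from Gja9_het. At an unadjusted limma p under 0.05 genes rose from 7 to 10 against wildtype (features from 1106 to 1444). Against Gja9_het genes rose from 11 to 18 (features from 1424 to 1938), and no gene was called. The part of probe position in any single difference was not tested.

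**Figure D3:**
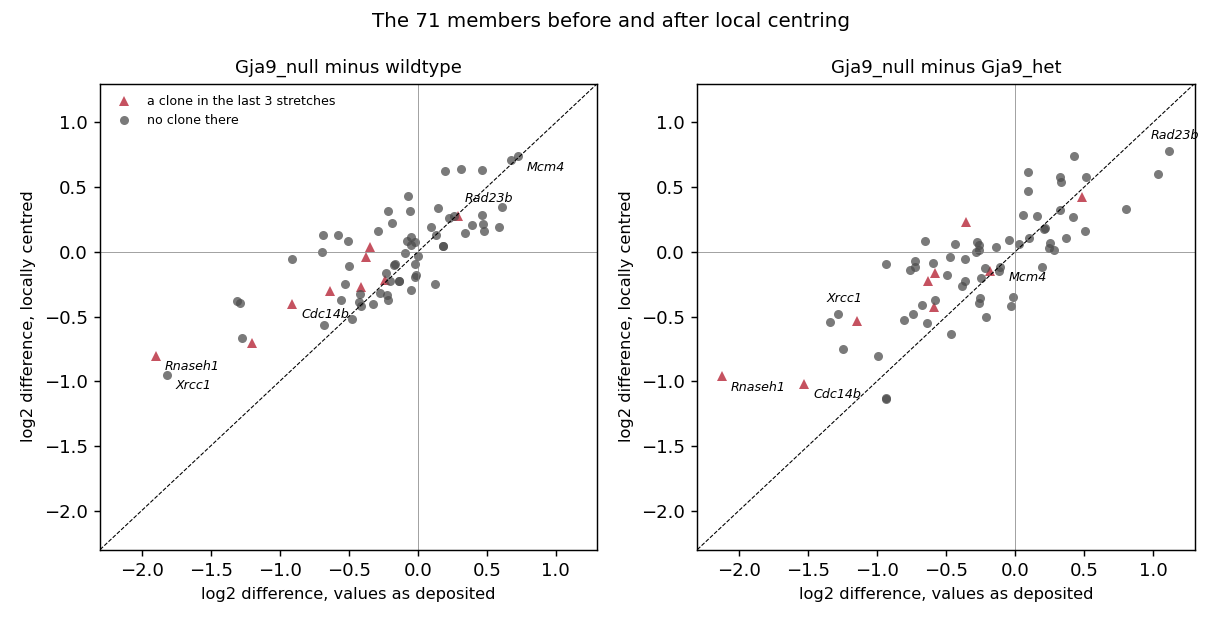
Log2 difference of the 71 genes with the deposited values (horizontal) and after centring on neighbouring probes (vertical), for Gja9_null against wildtype on the left and against Gja9_het on the right, with a dashed line of equality and triangles for genes with a clone in the last 3 stretches. Rnaseh1 stands at -0.80 after centring and -1.89 before it on the left, and at -0.96 and -2.12 on the right, while Mcm4 lies on the line.

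Different clones of the same gene gave a further measure of error. Of the 24 genes with more than 1 clone, all clones had the same direction between Gja9_null and wildtype in 13, between Gja9_het and wildtype in 6 and between Gja9_null and Gja9_het in 13. The median range between clones of a gene was 0.36, 0.42 and 0.49 in these comparisons. The lower and upper quartiles of the 71 differences were -0.45 and 0.14, -0.11 and 0.21, and -0.63 and 0.18 in turn. The 6 clones of Ccnd2 spread from -0.62 to 0.65 between Gja9_null and wildtype, although their mean was 0.13. The clones of Rad21 were farthest apart, at 0.33 and -1.18. All 5 clones of Cdc27 were negative, from -0.93 to -0.08, and all 3 clones of Orc6 were positive, from 0.02 to 0.50. Rnaseh1, Mcm4, Rad23b and Cdc14b had 1 clone each and no such check.

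**Figure D4:**
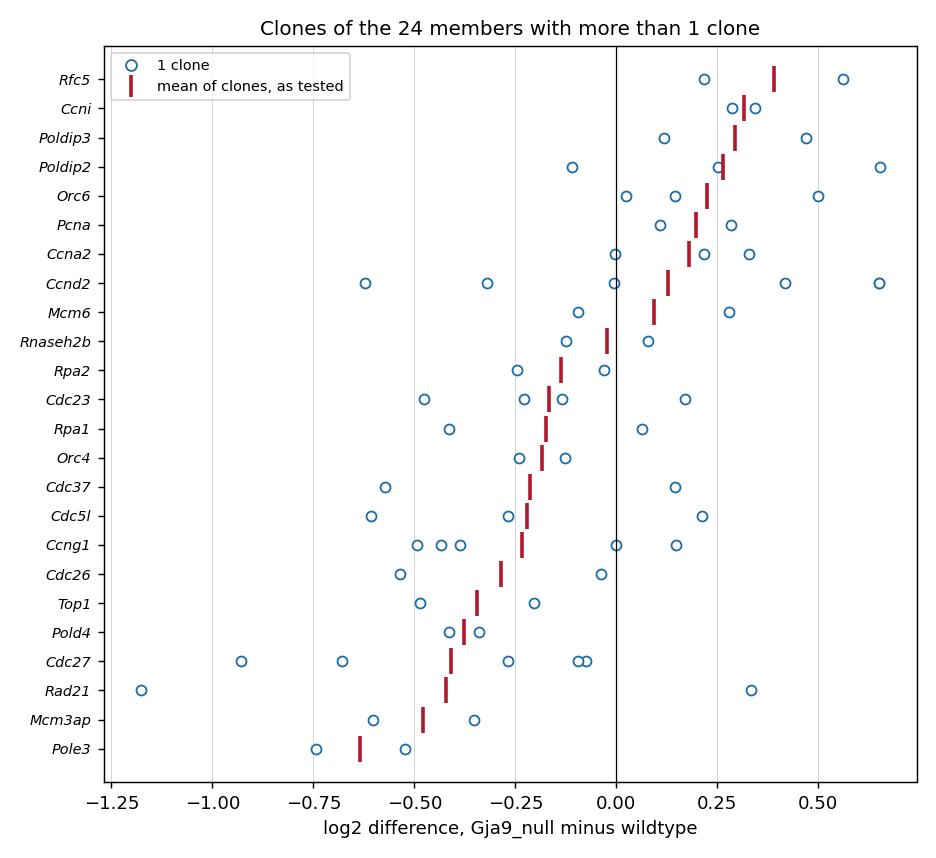
Log2 difference between Gja9_null and wildtype for each clone (open circles) of the 24 genes with more than 1 clone, with a bar at the mean that was tested. The circles of Rad21 lie 1.51 apart, and those of Ccnd2 fall on both sides of zero.

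Genes of the same processes outside the symbol rule were read from 7 lists, and none of their genes was called in any comparison. Of 31 measured genes for mitotic kinases, checkpoint and segregation 11 were higher and 20 lower in Gja9_null than in wildtype, with a median of -0.39. At an unadjusted p under 0.05 none was higher, against 2.41% of all features, and 4 were lower, against 9.22%, among them Kif23 (-0.97 ± 0.34), a motor of the central spindle, and Nusap1 (-1.28 ± 0.46), a spindle microtubule protein. Nusap1 had -2.46, -2.71, -1.23 and -1.13 in Gja9_null brains, -0.68, -0.56, -0.25 and -0.25 in Gja9_het brains and -0.37, -0.54, -0.86 and -0.63 in wildtype brains, so all Gja9_null samples were below the others. Without the first Gja9_null array the differences from wildtype were -0.57 for Nusap1 and -0.64 for Kif23. Among 8 origin firing and fork genes Dbf4, the activator of the kinase that fires origins, had -2.34, -2.62, -2.93 and -2.90 in Gja9_null brains, -0.997, -1.16, -1.38 and -1.58 in Gja9_het brains and -1.29, -1.44, -1.25 and -1.52 in wildtype brains. It was below every other sample on both Gja9_null arrays, with a difference of -1.32 ± 0.31 against wildtype (limma, adjusted p = 0.109). Its partner kinase gene Cdc7 had no value here.

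Among 8 genes of nucleotide supply 6 were higher and 2 lower in Gja9_null than in wildtype. Samhd1, which breaks down deoxynucleotides, had -0.14, 0.18, -0.74 and -0.76 in Gja9_null brains, -1.31, -1.32, -1.15 and -1.27 in Gja9_het brains and -1.68, -1.59, -2.70 and -2.64 in wildtype brains. Its Gja9_null samples lay above all others, by 1.79 ± 0.40 against wildtype (limma, adjusted p = 0.0935). Dtymk, which makes thymidine diphosphate, stood at -1.10 ± 0.39, and at -0.45 without the first Gja9_null array. Of 21 further repair genes 7 were higher and 14 lower, with Lig4, the ligase of end joining, at -1.28 ± 0.35 and the base excision nuclease Apex1 at 0.68 ± 0.31, or 0.40 without the first Gja9_null array. Of 10 DNA damage signalling genes 3 were higher and 7 lower, with Mdc1 at -0.93 ± 0.40 and Mdm4, a restraint on p53, at -0.86 ± 0.34, or -0.33 without the first Gja9_null array. The 7 genes for kinases and their inhibitors included Cks2 at -0.89 ± 0.30, and the 6 of the Rb and E2F axis Rb1 at -0.53 ± 0.39. Between Gja9_het and wildtype these lists had medians from -0.08 to 0.26 and 2 of 91 genes below an unadjusted p of 0.05, Samhd1 (0.89 ± 0.40), against 1.67% of all features that were higher, and Kif23 (-0.73 ± 0.34), against 0.515% that were lower.

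Cell type markers were measured thinly. Of 18 markers of neural progenitors and granule cell precursors Ptch1 was the 1 with values, at 0.35 to 0.58 times the mean signal of a sample in Gja9_null brains, 0.36 to 0.63 in Gja9_het brains and 0.39 to 0.48 in wildtype brains. Dividing precursors of neurons could therefore hardly be followed by their own markers. The summed signal of 3 of 7 markers of oligodendrocyte precursors, which also divide at this age, was 1.40 to 1.93 in Gja9_null brains, 2.13 to 2.79 in Gja9_het brains and 1.97 to 2.24 in wildtype brains. Pdgfra, the defining receptor among them, stood at -0.84 ± 0.34 against wildtype, and at -0.33 without the first Gja9_null array. The sum of 5 of 13 neuronal markers was 13.9 to 24.7 in Gja9_null brains, 20.2 to 24.3 in Gja9_het brains and 19.4 to 24.3 in wildtype brains. The sum of 6 of 11 astrocyte markers was 18.3 to 25.4 in Gja9_null brains, 14.2 to 19.3 in Gja9_het brains and 16.2 to 17.8 in wildtype brains. Of these 6 markers 3 were higher and 3 lower in Gja9_null than in wildtype, with a median difference of 0.11. Among the higher ones Slc1a3, a glutamate transporter, stood at 0.90 ± 0.31 against wildtype, and at 0.50 without the first Gja9_null array. The sum of 3 of 12 markers of oligodendrocytes and myelin was 6.86 to 14.2 in Gja9_null brains, 9.17 to 16.0 in Gja9_het brains and 13.6 to 17.7 in wildtype brains. Microglial markers (4 of 12) summed to 2.95 to 3.56 in Gja9_null brains, 4.33 to 4.78 in Gja9_het brains and 3.52 to 4.64 in wildtype brains. Of these 4 markers 2 were higher and 2 lower in Gja9_null than in Gja9_het, with a median difference of -0.10. Tyrobp, 1 of the lower ones, stood at -1.32 ± 0.42. Against wildtype 1 was higher and 3 were lower, with a median of -0.21. The sums of vascular markers (7 of 11) overlapped between all genotypes, as did those of erythroid markers (3 of 10). Of the 3 erythroid markers 2 were higher and 1 lower in Gja9_null than in wildtype. The lower one was Alas2, at -1.45 ± 0.34 (limma, adjusted p = 0.107), and at -0.99 without the first Gja9_null array. All Gja9_null samples of Alas2 lay below all others. The part of these cell types in the differences above was not tested.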

How the data were processed

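Per the labels' protocols, total RNA was labelled with a Cy5 or a Cy3 dye, and it was hybridised to spotted cDNA arrays. The label field gives Cy5 to odd and Cy3 to even sample numbers and was followed, although the labelling text names the other dye for wildtype 3 and Gja9_null 1. The values deposited by the authors are log2 signals in units of each sample's mean signal, a scale inferred here because the unlogged values of every sample average 1. Of the background correction and normalization by the authors nothing is given in the sources used here. Values in all samples were present for 13443 of 28704 probes, and 10356 of these name 1 gene, with 10263 symbols updated by gene number. Clones of a gene were averaged. Arrays give no depth, so their number limits the precision.

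Extracts of 1 genotype shared each array, per the submitters' design text, and no label says which samples did. Pairing was read from the correlation of the difference between samples 1 and 3 with that between samples 2 and 4 (0.940 in wildtype, 0.933 in Gja9_null, 0.919 in Gja9_het). Genotypes were compared in 1 two-sided fit with limma 3.58.1 in R 4.3.3, holding genotype and dye as fixed and arrays as random effects (duplicateCorrelation, 0.927), with Benjamini-Hochberg adjustment over 9514 features. The fit was tried on simulated data with 200 of 9514 features changed in Gja9_null and no effect of probe position. Log2 changes of 1 were recovered in 13% of these features and changes of 2 in 71.5%, with 3 and 12 false calls. Most changes of 1 were thus missed. Samples of 1 replicate number deviated together between Gja9_het and wildtype (correlations from 0.113 to 0.228 in 4 of 4 pairs), where the number also carries the dye, and not in the other comparisons. In local centring each value lost the median deviation of its neighbours within 50 probe numbers. The 28 alternatives concern block, pairing, dye, scaling, dim probes, clones, spread, weights and samples.

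The genes, lists and alternatives were chosen with earlier results of these data known. Genes were named by rule where they were called, had 1 of the 5 largest differences each way at an unadjusted p under 0.05 (filled to 3 by p), were among the brightest or dimmest 5, had at least 3 clones or had the smallest p of their role, with up to 2 genes per list and comparison. All other genes named with values, such as Rad54b, Cdc25b, Polk, Pcna, Top2a and Mcm7, were chosen after their values were seen. Figures were made with matplotlib 3.10.9.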

Additional observations from a re-analysis of the deposited data

Results flagged for a closer look

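In 108 groups of 4 samples, for the 36 genes named by rule in 3 genotypes, 5 had a sample far from the other 3 by Dixon's criterion. Its chance rate of about 1 in 20 holds for 4 independent values. Samples here share arrays, so the chance rate for these groups is not known. Poldip2, which binds a polymerase subunit, had 0.0129 in Gja9_null sample 1, against -0.26 to -0.25 in the other 3. The remaining 4 lay in Gja9_het brains. Rnaseh1 had -1.27 in sample 2, against -1.42 to -1.40 in the others. Rpa2 had 2.67 in sample 3, against 2.79 in each of the others. Top1 had -0.76 in sample 1, against -0.47 to -0.43. Xrcc5 had -1.86 in sample 2, against -2.23 to -2.16.

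The difference of Rnaseh1 from wildtype itself differed between Gja9_null and Gja9_het brains, by -2.12 (limma, adjusted p = 0.028 over 9514 features). Both differences share the wildtype samples, which cancel, so this is the contrast between Gja9_null and Gja9_het in the same fit.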

How the results depend on the processing

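Rnaseh1 kept its negative sign in all 26 alternatives that gave it a value as a gene, from -2.26 to -0.80 against wildtype and from -2.48 to -0.96 against Gja9_het. It stayed called in 20 of them against wildtype and in 15 against Gja9_het, counting the fits with no block and with crossed pairing. Over the other alternatives, called or not, the limma adjusted p ran from 0.00744 to 0.455 against wildtype and from 0.00606 to 0.291 against Gja9_het. Against wildtype the call was lost with array means (adjusted p = 0.107), quantile normalization (-1.44), cyclic loess (-1.58), local centring with or without array means and only the 2 genotypes in the fit (0.129). Against Gja9_het these and median centring (-2.01, 0.0525) ended it, and so did leaving out wildtype replicate 3 or Gja9_het replicate 2, 3 or 4 (0.0509 to 0.0555). The cause of these lost calls was not tested. With the dimmest 25% of probes left out 45 genes remained, without Rnaseh1, Cdc14b, Cdc37l1, Rad18 and Xrcc1. Between Gja9_null and wildtype 1 of the 45 genes and 726 of 7401 features then had an unadjusted limma p under 0.05. With all probes these were 7 of 71 genes and 1106 of 9514 features. Of the 7 features called without the dimmest probes 6 were higher and 1 lower. The dimmest 5 of the 71 genes were Mcm5, Pole3, Rad18, Xrcc1 and Xrcc5.

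Counts of called features, for Gja9_null against wildtype, Gja9_het against wildtype and Gja9_null against Gja9_het in turn, were 31, 0 and 26. Members of the module called were 1, 0 and 1. Features became 1464, 70 and 2119 without the array block (13, 0 and 22 members) and 7122, 5747 and 7543 with crossed pairing (57, 41 and 60 members), a pairing chosen only as a contrast. They were 2, 0 and 0 with array means, 5, 0 and 0 with quantile normalization (5 higher, 0 lower, against 11 and 20), 8, 0 and 0 with cyclic loess (8 higher, 0 lower), 23, 0 and 0 with median centring (13 higher, 10 lower; 1 member against wildtype), 56, 1 and 134 with local centring (33 higher, 23 lower), 0, 0 and 0 with local centring and array means, 3, 0 and 1 with only 2 genotypes, and 7, 0 and 0 without the dimmest probes, with 0 members called in these apart from that 1. Each probe alone gave 17, 0 and 0 (1, 0 and 0 members), trend and robust 24, 0 and 5, array weights 14, 0 and 32, no dye term 37, 0 and 64 (1, 0 and 2 members) and the fit without the first Gja9_null array 51, 0 and 95. Leaving out each sample gave 13 to 25, 0 and 0 to 20 features, with 1, 0 and 0 to 1 members. Against wildtype the count fell by over 1.5 times without wildtype 1, 3 or 4, Gja9_null 2 or 4 or Gja9_het 1 (13 to 20), and between Gja9_null and Gja9_het without any sample but Gja9_null 1 or 3 (0 to 17). Beside counts of 0 features, 158 to 1776 had an unadjusted limma p under 0.05. With the replicate number as a fixed term in place of dye, and arrays still random, there were 45, 0 and 44 features and the same member. This term changed no call between Gja9_het and wildtype, where numbers go together. In the comparisons with Gja9_null samples of 1 number did not deviate together (correlations from -0.094 to 0.067, best with their own number in 0 of 4 pairs with wildtype and 3 of 4 with Gja9_het).

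Rescaling moved the median of all features by up to 0.12 against wildtype and 0.16 between Gja9_null and Gja9_het (quantile). The 6 arrays limit the precision, and signal over background is unknown here.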
